A study of Caenorhabditis elegans with 59 samples.

Results

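The ERGO-1 class comprised 123 Caenorhabditis elegans genes. They were taken as every feature that carried the class prefix ergo in the deposited table of small RNAs from animals at generation 50, which held 23411 features. The label alone chose them and no measured value entered the choice. The same gene identifiers were then followed through 4 further tables of small RNA and mRNA. For comparison, that generation 50 table held 2434 features of the mutator class (prefix mut), 3640 of the CSR-1 class (prefix csr) and 1400 of the ALG-3/4 class (prefix alg).

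ERGO-1 is an Argonaute protein that binds primary small RNAs of the 26G type, which the RNA-dependent RNA polymerase RRF-3 and its ERI partners make in oocytes and embryos. Its targets are mostly recently duplicated genes, pseudogenes and genes with little conservation. On these transcripts a second polymerase step, run by the mutator complex, makes abundant 22G-RNAs that are bound by WAGO Argonautes, among them NRDE-3, which carries them into nuclei of somatic cells. MUT-14 and SMUT-1 are related DEAD-box RNA helicases that serve the mutator complex in the germ line, where each can stand in for the other. PRG-1 is the Argonaute of piRNAs, which feed other transcripts into the same 22G-RNA machinery.

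The study compared prg-1, mutator and combined mutants. The prg-1 strain SX922 carried prg-1(n4357). The mut-14 smut-1 strain GR1948 carried mut-14(mg464) and smut-1(tm1301) and, in addition, unc-119(ed3). The triple mutant GR2070 carried prg-1(n4357), mut-14(mg464) and smut-1(tm1301) without that unc-119 allele. A further series used the prg-1(tm872) strain WM161, and the reference strain was N2 wild type throughout. All RNA came from whole gravid adults grown at 20 °C on Escherichia coli OP50, harvested at 72 h in the generation 1 libraries and at 68 h in the prg-1(tm872) series. Generation 50 was sampled as 3 lines per genotype, and their age in hours is not given in the labels used here. Each group had 3 libraries, except the generation 1 small RNA of mut-14 smut-1 animals, which had 2. Nothing in the labels says that the generation 1 replicates came from separate cultures, so the p-values there measure only the spread between these libraries, which may be technical.

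The deposited values are read counts divided by a factor for each library, called normalized reads below; values listed for a gene are normalized reads in libraries or lines 1, 2 and 3 of a group. The small RNA libraries held between 4417660 and 13038182 counted reads at generation 50, between 224056 and 2117438 at generation 1 and between 1533620 and 2452755 in the prg-1(tm872) series. At generation 1 the mRNA of prg-1, mut-14, smut-1 and unc-119 was lower in the strains that carry an allele of the gene than in wild type; mRNA of the prg-1(tm872) strain was not analysed here. The prg-1 mRNA averaged 3905 normalized reads in prg-1 animals and 2708 in triple mutants, against 10339 in wild type. The mut-14 mRNA averaged 42.7 in mut-14 smut-1 animals and 39.2 in triple mutants, against 1810.3 in wild type. The smut-1 mRNA averaged 251 in mut-14 smut-1 animals and 250.0 in triple mutants, against 1702 in wild type. The unc-119 mRNA averaged 27.7 in mut-14 smut-1 animals, against 97.8 in wild type. Mutant strains without an allele of the gene also lay below wild type, without overlap and by smaller margins. The unc-119 mRNA averaged 65.0 in prg-1 animals and 58.1 in triple mutants, and the prg-1 mRNA averaged 7635 in mut-14 smut-1 animals. In prg-1 animals the mut-14 mRNA averaged 1447 and the smut-1 mRNA 1331. Replicate libraries of generation 1 small RNA differed by 1.08 to 1.93 times the sampling noise (chi-square per degree of freedom), and the generation 50 lines of a genotype by 2.87 to 150 times. This measure grows with read depth, which was higher at generation 50, so these ranges do not compare spread alone. One line stood apart for the class itself: in mut-14 smut-1 line 3 at generation 50, 53 of the 55 members tested had more class reads than in lines 1 and 2, with a median ratio of 4.37 to the mean of those lines. Results that rest on it are given with and without it.

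In wild type at generation 50 the class was carried by few members. The 123 members summed to 8687, 11191 and 8722 normalized reads, which was 0.128%, 0.151% and 0.123% of all counted small RNA reads. The member with most reads, the pseudogene Y17D7C.3, held 20.0% of the sum, the top 5 members held 48.4% and the top 26 held 89.2%. Members in the wild-type order by reads were Y17D7C.3, T16A1.9, F39E9.7, F39E9.10, E01G4.7, F55C9.5, F55C9.3, Y116F11A.1, Y105C5A.14 and C36A4.14. These counts are not divided by gene length, so the order is one of reads and not of density. At the other end, 34 members had no class reads in any wild-type library, 16 had none in any of the 12 libraries, and 55 reached a wild-type mean of 10 normalized reads. RefSeq (assembly WBcel235) matched 115 members by identifier, of which 82 were annotated as protein coding and 29 as pseudogenes. The 29 pseudogenes held 48.2% of the wild-type class reads and the 82 protein-coding members held 31%.

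Most members were counted a second time in the same table. A separate entry existed for 85 of them, 79 in the mutator class and 6 in the CSR-1 class, and 38 members had no other entry. The files do not say which reads each entry counts. The class count was never above the second count in any of the 1020 library values, and in wild type it was 2.37% of the second count in the median gene. The highest share was 50.9% for T16A1.9, followed by 41.5% for Y116F11A.1, 32% for C39B5.2, 27.7% for F55C9.5 and 21.8% for C40A11.10. The second count of the 85 genes summed to 230654, 291291 and 256846 normalized reads in wild type. Across the 85 genes the 2 wild-type counts were related with a Pearson correlation of 0.53 and a Spearman correlation of 0.54 on the log scale, a description over genes that share libraries. Below, the ERGO-1 class count and the second count (mutator or CSR-1 class) are kept apart. The generation 1 and prg-1(tm872) tables give 1 small RNA count per gene, without classes.

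**Figure D1:**
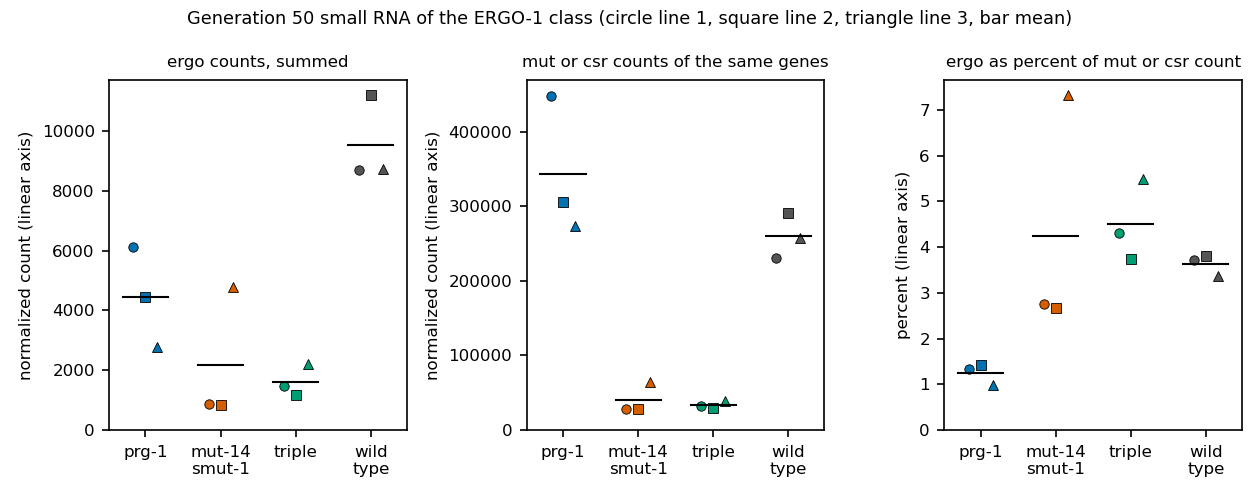
Generation 50 small RNA of the class by genotype, on linear axes from 0: summed ERGO-1 class counts in normalized reads (left), summed mut or csr counts of the same genes in normalized reads (middle) and the first as a percent of the second (right). Symbols are lines 1 to 3 and bars are group means; all mutant lines lie below wild type on the left, where mut-14 smut-1 line 3 (4787) lies above lines 1 and 2 (861 and 834), and the prg-1 lines lie at 0.987% to 1.42% on the right, against 3.36% to 3.8% in wild type.

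The class count was lower in each mutant than in wild type at generation 50. It summed to 6107, 4435 and 2778 normalized reads in prg-1 lines, to 861, 834 and 4787 in mut-14 smut-1 lines and to 1464, 1157 and 2213 in triple mutant lines. Wild-type lines had 8687, 11191 and 8722. No mutant line reached the lowest wild-type line, and in mut-14 smut-1 the third line held far more reads than the first and second. As a share of counted small RNA, the class stood at 0.352 of wild type in prg-1 lines, 0.152 in mut-14 smut-1 lines (0.0736 without line 3) and 0.136 in triple mutants. With 3 lines against 3, a two-sided exact permutation test cannot go below p = 0.1, and it gave p = 0.1 for each mutant against wild type and for triple mutants against prg-1. Triple mutants against mut-14 smut-1 overlapped (p = 1.0, exact permutation test). In whole animals, fewer cells that make these RNAs and less RNA per cell cannot be told apart, and in the mut-14 smut-1 strain neither can the helicase alleles and unc-119(ed3). Set against the counted total without piRNAs and miRNAs, the share was 0.379 of wild type for prg-1 lines, 0.669 for mut-14 smut-1 lines (0.252 without line 3) and 0.465 in triple mutants. On that measure mut-14 smut-1 line 3, at 0.366%, lay above every wild-type line (0.221% to 0.278%), while lines 1 and 2 had 0.0629% and 0.0601%.

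In mut-14 smut-1 lines the class count of nearly every member that could be tested was lower. Testing here and below used limma on log2(normalized reads + 1), with Benjamini-Hochberg adjustment over all features of a table and calls at an adjusted p under 0.05; log2 changes carry their SE. Features needed 10 normalized reads in as many libraries as the smallest group, and 55 of the 123 members passed that filter. Members with few class reads in wild type could pass only through mutant libraries, which favours rises. Members high in wild type could pass through the wild-type lines alone, which favours falls. The counts of falls and rises therefore lean on this filter and describe those 55 members, not the whole class. Of these 55, 49 fell and 2 rose in mut-14 smut-1 against wild type, where 26% of all features tested fell and 52.8% rose. With piRNAs and miRNAs set aside, 44.6% of 6363 features fell and 33.6% rose. The median change was -2.90 over members, 0.66 over all features and -0.16 over those 6363. Without line 3 the counts were 53 lower and 2 higher of 58 tested. With library totals 54 were lower and 2 higher, and scaled to summed miRNA 58 were lower and none higher, with the median of all features shifted by -0.42 and -1.34. The small RNA classes at generation 50 moved in different directions in this comparison: 2387 of 2431 mutator class features fell, 1915 of 3591 CSR-1 class features rose and 213 of 215 ALG-3/4 class features rose.

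All 10 of the members most abundant in wild type fell, a choice by wild-type reads that itself favours falls. Y17D7C.3 had 102, 106 and 773 in mut-14 smut-1 animals, against 1663, 2206 and 1854 in wild type (log2 change -3.21 ± 0.66, adjusted p = 0.000949). E01G4.7 had 19.9, 18.8 and 248 in mut-14 smut-1 animals, against 351, 472 and 377 in wild type (log2 change -3.08 ± 0.80, adjusted p = 0.00446). F39E9.10 had 75.5, 69.6 and 311 in mut-14 smut-1 animals, against 501, 583 and 465 in wild type (log2 change -2.11 ± 0.52, adjusted p = 0.00299). In these 3 genes the groups did not overlap, and line 3 was the mutant line nearest to wild type. The largest fall was that of Y116F11A.1, with 0, 0 and 89.8 in mut-14 smut-1 animals, against 249, 381 and 265 in wild type (log2 change -6.03 ± 1.36, adjusted p = 0.00181). C39B5.2 had 2.98, 0 and 37.1 in mut-14 smut-1 animals, against 125, 169 and 141 in wild type (log2 change -4.76 ± 1.12, adjusted p = 0.00244). F39F10.4 had 0, 0 and 1.2 in mut-14 smut-1 animals, against 19.8, 34.1 and 25 in wild type (log2 change -4.36 ± 0.71, adjusted p = 0.000184). In these 3 genes lines 1 and 2 were at or near 0. The size and order of these log2 changes therefore depend on the value added before taking logs. The neighbouring genes E01G4.5 and E01G4.7 fell together, E01G4.5 with 3.97, 5.8 and 38.3 in mut-14 smut-1 animals, against 119.002, 202 and 158 in wild type (log2 change -3.84 ± 0.69, adjusted p = 0.000385). At the weak end, C44B11.6 had 68.5, 63.8 and 88.6 in mut-14 smut-1 animals, against 165, 124 and 112 in wild type (log2 change -0.85 ± 0.27, adjusted p = 0.0127), and its call was lost without wild-type line 1. The call of ZK402.3 (-0.91 ± 0.38) was lost without mut-14 smut-1 line 1 or 2 and without any 1 of the wild-type lines. For T16A1.9, with 25.8, 18.8 and 725 in mut-14 smut-1 animals, against 1188, 1314 and 893 in wild type, line 3 was close to the lowest wild-type line (log2 change -3.94 ± 1.08, adjusted p = 0.00621).

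Against the direction of the class, MTCE.31 and MTCE.12 rose. MTCE.31 had 15.9, 30.4 and 15.6 in mut-14 smut-1 animals, against 7.83, 4.01 and 1.35 in wild type (log2 change 2.13 ± 0.49, adjusted p = 0.00196). MTCE.12 had 9.93, 18.8 and 15.6 in mut-14 smut-1 animals, against 5.74, 2.68 and 4.73 in wild type (log2 change 1.55 ± 0.36, adjusted p = 0.00223). Both counts were low, and neither was called when libraries were scaled to their miRNA sum. Every wild-type value of both genes was under 10, so they passed the filter only through mutant libraries, which favours a rise.

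The second counts of the same genes fell as widely. Of 85 members with such an entry, 76 fell and 4 rose in mut-14 smut-1 against wild type, and the median change was -3.11. Of all features tested, 26% fell and 52.8% rose. In the mutator class, to which 79 of the 85 entries belong, 98.2% fell with a median change of -5.23. The fall was thus not particular to these members. In sum the members had 28724, 28310 and 63784 normalized reads in mut-14 smut-1 lines and 31741, 29125 and 39201 in triple mutant lines, against 230654, 291291 and 256846 in wild type. The groups did not overlap (p = 0.1 for each mutant, exact permutation test). Y17D7C.3 had 1075, 1002 and 6765 in mut-14 smut-1 animals, against 46643, 60294 and 55315 in wild type (log2 change -4.79 ± 0.62, adjusted p = 2.88e-05). The largest falls were in F39F10.4 (log2 change -6.72 ± 1.00), in Y71A12B.2 and Y71A12B.3, whose values are identical in every library (-6.46 ± 0.45 each), and in H37A05.4 (-6.09 ± 0.82). ZK262.8, which had no ERGO-1 class read in any library, had a second count of 51.6, 58 and 33.5 in mut-14 smut-1 animals, against 2788, 2814 and 2638 in wild type (log2 change -5.85 ± 0.19, adjusted p = 5.82e-10). The gene eri-6, which encodes part of the ERI-6/7 helicase that ERGO-1 small RNAs need, had 583, 652 and 463 in mut-14 smut-1 animals, against 27655, 29449 and 28871 in wild type (log2 change -5.67 ± 0.16, adjusted p = 1.96e-10).

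The 4 members whose second count rose in mut-14 smut-1 had at most 2.09 class reads in any library. They were mdt-4, a Mediator subunit, mix-1, a condensin subunit, cgh-1, a DEAD-box RNA helicase of germ granules, and F42C5.9. For cgh-1 the values were 682, 715 and 723 in mut-14 smut-1 animals, against 518, 449.6 and 478 in wild type (log2 change 0.55 ± 0.11, adjusted p = 0.000684). F42C5.9 had 1287, 1456 and 784 in mut-14 smut-1 animals, against 387, 389 and 387 in wild type (log2 change 1.55 ± 0.19, adjusted p = 2.1e-05), although it had almost no small RNA reads in the generation 1 table (0.821, 1.01 and 2.24 in wild type). The direction of mdt-4, mix-1 and cgh-1 depended on scaling: per summed miRNA their changes were -0.63, -0.76 and -0.81. Under edgeR on recovered reads, mix-1 changed by -0.042 and cgh-1 by -0.093.

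At generation 50 no class count was called between triple mutants and mut-14 smut-1 animals. This held for all 55 members in limma with the deposited scaling, where 6.05% of all features rose and 48.6% fell, and 10.2% and 15% did so with piRNAs and miRNAs set aside. At an unadjusted p under 0.05, 2 members were higher and 1 was lower in limma, none higher and 1 lower in edgeR, and none higher and 2 lower in DESeq2. This result rested on mut-14 smut-1 line 3: without it, 19 members were higher in triple mutants and none was lower. F52D2.6 had 34.6, 40.1 and 73.3 in triple mutants, against 6.95, 7.25 and 129 in mut-14 smut-1 animals. Y116A8B.1 had 81.9, 61.5 and 99.7 in triple mutants, against 15.9, 20.3 and 95.7 in mut-14 smut-1 animals. In both genes every triple mutant line lay above mut-14 smut-1 lines 1 and 2. Of the second counts, 4 rose and 4 fell with all lines included, 25 rose and 3 fell without mut-14 smut-1 line 3, and 4 in all were called without triple mutant line 1. With library totals 7 second counts rose and 4 fell. The rise of cgh-1 (log2 change 0.90 ± 0.11, adjusted p = 1.03e-05) and the fall of ZK262.8 (log2 change -1.24 ± 0.19, adjusted p = 0.000111) were the largest in each direction.

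Triple mutants also had lower counts than prg-1 animals. In triple mutants against prg-1 at generation 50, 20 of the 55 class counts fell and 1 rose, where 17% of all features fell and 11.4% rose. With piRNAs and miRNAs set aside, 28.9% of features fell and 16.9% rose. Without prg-1 line 1, which had the highest counts of the 3 prg-1 lines, only 8 were called. Y105C5A.14 had 14.1, 13.4 and 36.6 in triple mutants, against 176, 118 and 136 in prg-1 animals (log2 change -2.82 ± 0.69, adjusted p = 0.00871). C40A11.10, annotated in RefSeq with a miRNA biotype, had 1.28, 5.35 and 6.11 in triple mutants, against 66, 38.8 and 29.4 in prg-1 animals (log2 change -3.21 ± 0.74, adjusted p = 0.00622). Both genes separated the groups without overlap. Of the second counts, 73 of 85 fell and 3 rose, where 62.7% of mutator class features fell and 1.85% rose.

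**Figure D2:**
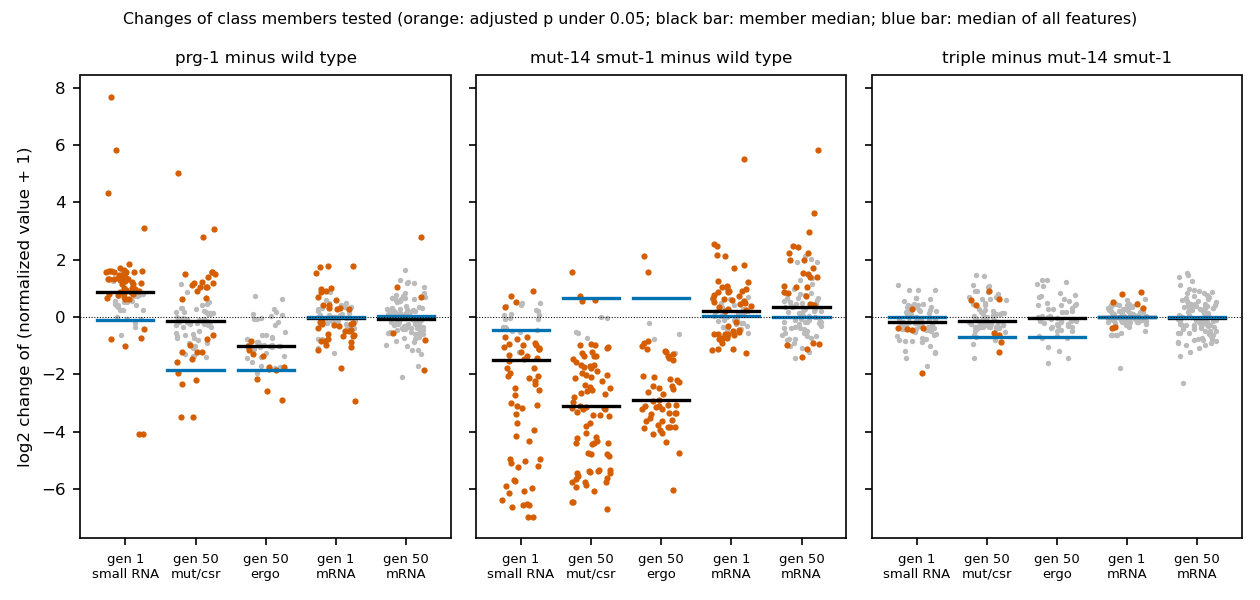
Log2 change of (normalized value + 1) of each member tested (points, orange where the limma adjusted p was under 0.05), by comparison and readout; black bars are member medians and blue bars the medians of all features. In mut-14 smut-1 minus wild type the small RNA medians are -1.50, -3.11 and -2.90 while the mRNA medians are 0.20 and 0.36. In prg-1 minus wild type the small RNA median is 0.88 at generation 1. At generation 50 it is -0.15 for the second count and -1.02 for the class count. These readouts are different counts over different sets of members.

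In prg-1 lines at generation 50 a minority of class counts was called in limma. Of the 55 tested, 12 fell and none rose in prg-1 against wild type, where 57.3% of all features fell and 21.3% rose. Most of the features that fell were piRNAs: with piRNAs and miRNAs set aside, 30.1% of 6363 features fell and 35.1% rose. In limma with the deposited scaling the share of members called lower, 21.8%, was below both of these shares. That order may not hold under other tools or scalings, which called more members and whose shares over all features are not given here. The median change was -1.02 over the members, -1.84 over all features and 0.12 over those 6363. At an unadjusted p under 0.05, 14 members were lower and none was higher, and no member rose under edgeR or DESeq2, which called 36 and 22 lower. T08B6.2 had 4.19, 4.62 and 5.88 in prg-1 animals, against 37.6, 57.5 and 35.8 in wild type (log2 change -2.90 ± 0.74, adjusted p = 0.00355). Y43F8B.9 had 34.6, 35.1 and 13.7 in prg-1 animals, against 97.6, 114 and 70.3 in wild type (log2 change -1.80 ± 0.40, adjusted p = 0.00147). Y17D7B.4 had 35.6, 43.5 and 29.4 in prg-1 animals, against 124, 119.8 and 124 in wild type (log2 change -1.75 ± 0.43, adjusted p = 0.00284). The groups did not overlap in any of these 3 genes. W04B5.2 fell likewise, with 69.1, 55.5 and 37.2 in prg-1 animals, against 169, 201 and 206 in wild type (log2 change -1.85 ± 0.49, adjusted p = 0.00475). The calls of C40A11.10 (-2.16 ± 0.74), F39E9.10 (-1.30 ± 0.52) and C44B11.6 (-0.82 ± 0.27) were lost when single lines were left out, and without prg-1 line 3 the count was 8.

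The second counts in the same prg-1 lines moved both ways. Of 85 members, 18 rose and 13 fell, and the sums of 448338, 305831 and 273756 normalized reads in prg-1 lines overlapped the 230654, 291291 and 256846 of wild-type lines (p = 0.2, exact permutation test). Of mutator class features, 18.4% rose and 61.2% fell. With piRNAs and miRNAs set aside, 35.1% of all features rose and 30.1% fell. Scaled to library totals, 14 rose and 20 fell, and scaled to the miRNA sum 9 rose and 34 fell, with the median of all features shifted by -0.35 and -0.91. With edgeR on recovered reads 13 rose and 22 fell. The class count was also a smaller part of the second count in prg-1: 1.34%, 1.42% and 0.987% in prg-1 lines, against 3.72%, 3.8% and 3.36% in wild-type lines (p = 0.1, exact permutation test). Gene by gene, this percentage was compared for the 51 members with both entries and a wild-type mean of 10 or more class reads. All 3 prg-1 lines were below every wild-type line for 36 of them, above for 1 and overlapping for 14. These members were chosen by their class reads in wild type, which favours a lower percentage in prg-1, so no conclusion is drawn from these counts. The ratio of 2 counts from 1 library does not depend on how libraries were scaled. T08B6.2 shows both sides: its class count fell, as given above, while its second count was 3468, 1348 and 924 in prg-1 animals, against 684, 744 and 765 in wild type, a change of 1.16 ± 0.64 that was not called.

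A few genes gained second counts many times over in prg-1 lines. Y55F3BR.2 had 39228, 31278 and 48081 in prg-1 animals, against 1231, 1201 and 1198 in wild type (log2 change 5.01 ± 0.17, adjusted p = 6.96e-10). The gene gfrl-1, named for its likeness to GDNF receptors, had 20405, 14674 and 18319 in prg-1 animals, against 2669, 2329 and 2593 in wild type (log2 change 2.80 ± 0.21, adjusted p = 1.12e-07). The gene ttn-1, which encodes a titin-like giant muscle protein, had 2125, 671 and 689.9 in prg-1 animals, against 97.1, 132 and 127 in wild type (log2 change 3.07 ± 0.38, adjusted p = 1.11e-05). In each gene all prg-1 lines lay above wild type. None of the 3 passed the filter for the ERGO-1 class count, which was at most 13.7 normalized reads in any library. In the opposite direction, Y71A12B.2 and Y71A12B.3 each had 290.1, 87.9 and 82.3 in prg-1 animals, against 1043, 2053 and 1471 in wild type (log2 change -3.50 ± 0.45, adjusted p = 1.71e-05). The falls of mps-2, a potassium channel subunit (-1.97 ± 0.79), and Y60A3A.27 (-2.21 ± 0.79) were lost when single lines were left out.

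At generation 1 the summed small RNA reads of the members were higher in prg-1 animals than in wild type. The 103 members in that table summed to 57886, 64086 and 61392 normalized reads in prg-1 animals, to 5268 and 4914 in mut-14 smut-1 animals and to 4652, 4205 and 4920 in triple mutants, against 26214, 26015 and 26641 in wild type. That was 3.71% to 3.82% of all counted reads in prg-1 animals, 1.03% to 1.07% in mut-14 smut-1 animals and 0.851% to 0.979% in triple mutants, against 2.43% to 2.46% in wild type. The 20 members that carry a pseudogene or coding-sequence tag in the generation 50 table had no entry at generation 1, and these 20 held 51.6% of the wild-type class reads at generation 50. Of 80 members tested, 49 rose and 6 fell in prg-1 against wild type, where 27.9% of all features rose and 38.3% fell. The median change was 0.88 over members and -0.10 over all features. Scaled to library totals, which shifted the median of all features by -0.54, 28 members rose and 8 fell.

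The largest gains in prg-1 animals at generation 1 were those of cpz-1 and rps-13, with few small RNA reads in wild type, and of Y55F3BR.2, which had more. The gene cpz-1, which encodes a cathepsin Z-like cysteine protease, had 2166, 2379.8 and 2161 in prg-1 animals, against 13.1, 10.6 and 6.73 in wild type (log2 change 7.69 ± 0.74, adjusted p = 6.78e-06). The gene rps-13, for a protein of the small ribosomal subunit, had 1112, 1215 and 1100 in prg-1 animals, against 15.6, 18.2 and 24.7 in wild type (log2 change 5.82 ± 0.20, adjusted p = 7.39e-09). Y55F3BR.2 had 11023, 12227 and 11526 in prg-1 animals, against 569.7, 582 and 564 in wild type (log2 change 4.34 ± 0.48, adjusted p = 2.04e-05). The prg-1 libraries of these 3 genes were close to each other and far above wild type. Several members with many small RNA reads rose by a factor near that of the sum. K02E2.6 had 2981, 3207 and 3002 in prg-1 animals, against 1175, 1155 and 1314 in wild type (log2 change 1.33 ± 0.068, adjusted p = 8.67e-08). F39E9.7 had 1176, 1339.8 and 1278 in prg-1 animals, against 512, 533 and 449 in wild type (log2 change 1.34 ± 0.12, adjusted p = 5.05e-06). For W04B5.1 the counts were 1146, 1536 and 1395 in prg-1 animals, against 438, 453 and 483 in wild type (log2 change 1.56 ± 0.099, adjusted p = 3.83e-07). The groups did not overlap in any of them. The 6 that fell included Y71A12B.2 and Y71A12B.3, each with 14.7, 14.9 and 8.89 in prg-1 animals, against 228, 226 and 225 in wild type (log2 change -4.07 ± 0.66, adjusted p = 0.000305), pcmd-1, a centrosome protein (-1.0 ± 0.18), and vab-10, a spectraplakin that links cytoskeleton and attachments (-0.77 ± 0.17).

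**Figure D3:**
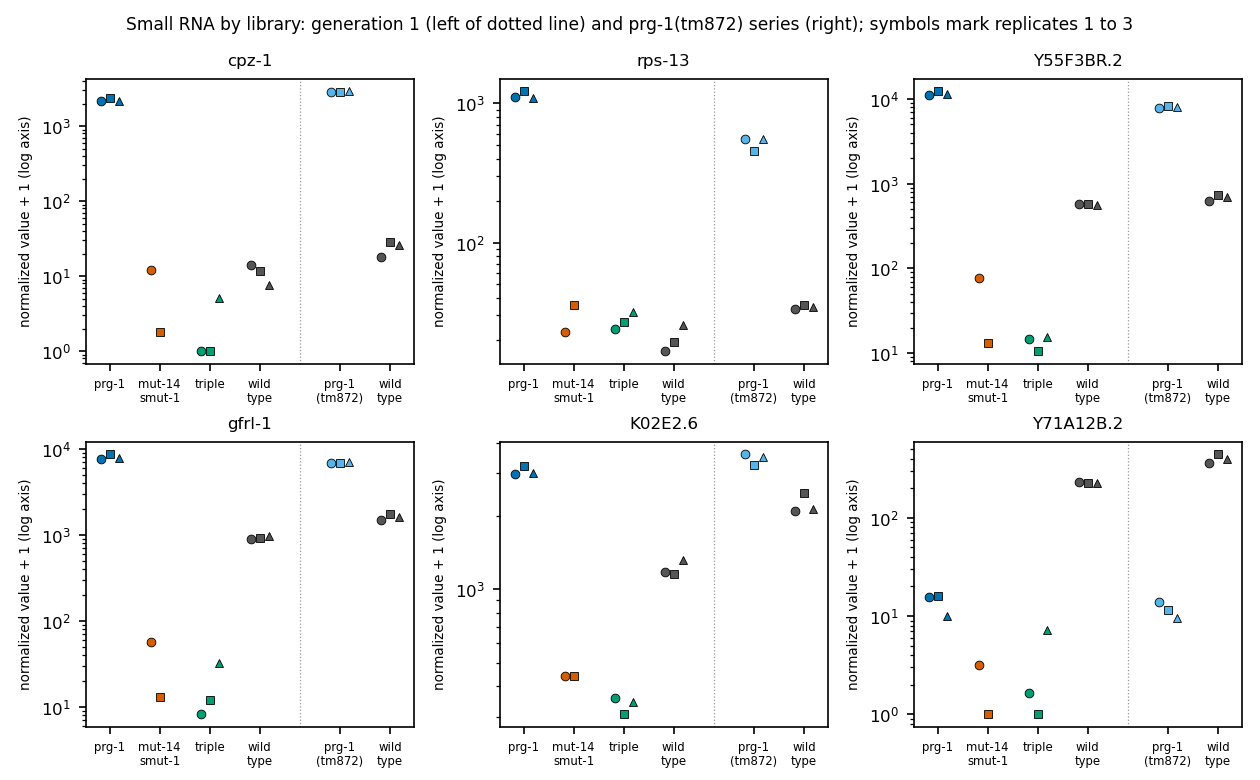
Small RNA counts of 6 members by library, as normalized reads plus 1 on log10 axes, for generation 1 (left of the dotted line) and the prg-1(tm872) series (right); symbols are replicates. For cpz-1, rps-13, Y55F3BR.2, gfrl-1 and K02E2.6 the prg-1 libraries of both alleles lie above their wild type and the triple mutants lie far below prg-1, while Y71A12B.2 lies below wild type in every mutant library.

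Members with many and with few ERGO-1 class reads were both among those that rose. Of the members with a mean of 10 or more class reads over all generation 50 libraries, 22 of 29 tested rose in prg-1 at generation 1 and 2 fell, with a median change of 1.34. Of the members under that mean, 27 of 51 rose and 4 fell, with a median change of 0.77. The difference between these groups of genes was not tested.

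A second prg-1 allele, in a separate experiment, was called higher for 31 of those 49 genes. In prg-1(tm872) animals the 95 members present summed to 70773, 70097 and 70811 normalized reads, against 43862, 54287 and 50726 in wild type. Of 84 tested, 42 rose and 12 fell, where 34.2% of all features rose and 41.4% fell. Without wild-type library 1, which was low for several members, 64 instead of 54 were called, and with library totals 29 rose and 15 fell. Among 80 members tested for both alleles, 31 rose with both, 6 fell with both and none was called in opposite directions. The gain was larger with prg-1(n4357) in 28 of those 31, a comparison across tables that were normalized separately. For cpz-1 the counts were 2824, 2859 and 2897 in prg-1(tm872) animals, against 17.2, 27.6 and 24.7 in wild type (log2 change 6.91 ± 0.15, adjusted p = 2.26e-10). The counts of rps-13 were 552, 455 and 549 in prg-1(tm872) animals, against 32.5, 34.9 and 33.4 in wild type (log2 change 3.90 ± 0.10, adjusted p = 1.11e-09). Y71A12B.2 had 13, 10.6 and 8.5 in prg-1(tm872) animals, against 359.7, 441 and 400.2 in wild type (log2 change -5.11 ± 0.17, adjusted p = 4.98e-09). All 3 genes separated the groups, as they had with the other allele. E01G4.5 rose with prg-1(n4357) (1.33 ± 0.31), while with prg-1(tm872) it had 3052, 3106 and 3208 in prg-1(tm872) animals, against 1999.6, 3666 and 4018 in wild type, with overlap, and the difference between alleles was not tested.

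Small RNA reads of many members were lower in triple mutants than in prg-1 animals. In triple mutants against prg-1 at generation 1, 65 of 80 members fell and 1 rose, where 23.6% of all features fell and 10.3% rose. Scaled to library totals, which shifted the median of all features by 1.59, 48 fell and 18 rose. In mut-14 smut-1 against wild type, 56 fell and 4 rose, where 46.9% of all features fell and 21.9% rose; with library totals, which shifted that median by 1.20, 39 fell and 24 rose. The gene cpz-1 had 0, 0 and 4.13 in triple mutants, against 2166, 2379.8 and 2161 in prg-1 animals. For rps-13 the counts were 22.8, 26 and 31 in triple mutants, against 1112, 1215 and 1100 in prg-1 animals. Both genes lay far below every prg-1 library. The member that rose was cgh-1, with 395, 358 and 390.2 in triple mutants, against 271, 287 and 252 in prg-1 animals (log2 change 0.50 ± 0.067, adjusted p = 0.000147). K02E2.6 had 358, 306 and 343 in triple mutants, against 2981, 3207 and 3002 in prg-1 animals (log2 change -3.19 ± 0.068, adjusted p = 1.36e-10). The gene eri-6 had 118.6 and 77 in mut-14 smut-1 animals, against 9363, 8984 and 9243 in wild type (log2 change -6.57 ± 0.68, adjusted p = 1.04e-05), and in prg-1 animals it had 5780.2, 6009 and 5839, which lay between. In triple mutants against mut-14 smut-1, 1 member rose and 5 fell, where 2.9% of all features rose and 3.18% fell, and the count was 1 without mut-14 smut-1 replicate 1 and 15 without replicate 2.

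The test of the difference itself, the prg-1 effect in the mut-14 smut-1 background minus the prg-1 effect in wild type, called 39 members lower and 3 higher at generation 1, where 20.4% of all features were lower and 31% higher. With library totals these were 29 lower and 8 higher. Only the mut-14 smut-1 strain carries unc-119(ed3), so here and below the prg-1 allele and the unc-119 difference cannot be told apart in this term. The values for K02E2.6 were -1.73 ± 0.10, for F39E9.7 -1.75 ± 0.19 and for W04B5.1 -1.74 ± 0.15. At generation 50 this test called 4 class counts higher and none lower, where 15.2% of all features were higher and 37.7% lower, and 26% and 24.5% with piRNAs and miRNAs set aside. It called 5 second counts higher and 16 lower. Without mut-14 smut-1 line 3 it called 29 class counts higher and 1 lower, and 31 second counts higher and 14 lower. Without wild-type line 1 it called 2 class counts. The split of the second counts depended on scaling, with 21 higher and 10 lower with library totals and 22 higher and 9 lower per summed miRNA, and edgeR gave 11 higher and 7 lower. Of the 4 class counts, only Y43F8B.9 kept its call when any single line was left out, with 34.6, 35.1 and 13.7 in prg-1 lines, 19.9, 15.9 and 29.9 in mut-14 smut-1 lines and 14.1, 28.1 and 26.5 in triple mutant lines, against 97.6, 114 and 70.3 in wild type (log2 change 1.85 ± 0.57, adjusted p = 0.0183).

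Small RNA levels of the members were related between experiments to unequal degrees. Across 95 members the wild-type counts of generation 1 and of the prg-1(tm872) series were correlated with a Pearson r of 0.97, a description over genes on the log scale. Generation 1 counts followed the second counts of generation 50 (66 members, r = 0.60) more closely than the ERGO-1 class counts (103 members, r = 0.30). Some genes were at or near 0 in wild type at generation 1, among them E02H9.6, W04B5.6 and W05H12.4, with means of 0.274, 0 and 2.73, and had means of 1119, 754 and 1699.5 in the second count of generation 50. These genes have an adjacent member of the class (W04B5.6 and E02H9.6 are adjacent to each other). The sources used here do not say whether reads were assigned to them in the same way in both tables.

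The mRNA of the members moved both ways. All 123 members were listed in both mRNA tables, and 86 at generation 1 and 99 at generation 50 passed the filter. In mut-14 smut-1 against wild type, 31 rose and 20 fell at generation 1, where 38.1% of all genes rose and 39.9% fell. With library totals, which shifted the median of all genes by 0.23, 38 rose and 15 fell. At generation 50, 22 rose and 5 fell, where 16.5% of all genes rose and 11.3% fell. That count ranged from 17 calls without wild-type line 3 to 43 without mut-14 smut-1 line 3. The median member change was 0.20 at generation 1 and 0.36 at generation 50, against 0.04 and 0.01 over all genes. Among the members with 10 or more mean class reads at generation 50, 13 of 38 rose and none fell at generation 50, and among the others 9 of 61 rose and 5 fell. Of the pseudogene members 9 of 24 rose and none fell, and of the protein-coding members 10 of 64 rose and 5 fell. Differences between these groups of genes were not tested.

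The mRNA of ZK262.8 had the largest rise of any member in mut-14 smut-1. It had 173, 147 and 186 in mut-14 smut-1 animals, against 2.58, 3.77 and 2.1 in wild type at generation 1 (log2 change 5.49 ± 0.22, adjusted p = 3.42e-12) and 229.7, 85.1 and 148 in mut-14 smut-1 animals, against 1.4, 1.16 and 2.26 in wild type at generation 50 (log2 change 5.81 ± 0.45, adjusted p = 2.01e-05). No mutant library came near a wild-type library. K02E2.6 had 179, 159 and 158 in mut-14 smut-1 animals, against 62.7, 76.5 and 69.2 in wild type at generation 1 (log2 change 1.24 ± 0.12, adjusted p = 8.65e-08) and 469, 625 and 328 in mut-14 smut-1 animals, against 108, 124 and 109.7 in wild type at generation 50 (log2 change 2.00 ± 0.27, adjusted p = 0.000775). W04B5.1 had 32.9, 20.7 and 36.7 in mut-14 smut-1 animals, against 6.02, 8.5 and 4.19 in wild type at generation 1 (log2 change 2.11 ± 0.39, adjusted p = 0.000127) and 85, 27.2 and 77.6 in mut-14 smut-1 animals, against 7, 10.4 and 3.39 in wild type at generation 50 (log2 change 2.96 ± 0.50, adjusted p = 0.00273). For both genes the groups did not overlap at either generation. E01G4.5, with 539, 286 and 387 in mut-14 smut-1 animals, against 150, 109 and 150.5 in wild type at generation 50, rose at both generations (0.77 ± 0.091 and 1.53 ± 0.23). So did F39E9.10 (0.90 ± 0.16 and 1.39 ± 0.22), F39E9.7 (0.50 ± 0.22 and 1.70 ± 0.36), C44B11.6 (2.17 ± 0.31 and 1.49 ± 0.40) and ZK402.3 (2.49 ± 0.36 and 3.61 ± 0.82). The generation 1 call of F39E9.7 was lost without mut-14 smut-1 replicate 1 or 3 and without any 1 of the wild-type replicates, and the generation 50 call of C44B11.6 without mut-14 smut-1 line 1 or wild-type line 3.

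Not every member with fewer small RNAs had more mRNA. C39B5.2 had an mRNA of 63.8, 67.7 and 61.3 in mut-14 smut-1 animals, against 151, 143 and 167 in wild type at generation 1 (log2 change -1.25 ± 0.12, adjusted p = 1.18e-07). F52D2.6 had 390.2, 428 and 426 in mut-14 smut-1 animals, against 720.4, 696 and 719 in wild type (log2 change -0.78 ± 0.069, adjusted p = 3.79e-08). Y17D7C.3, the member with most class reads, had 55.4, 93.8 and 71.3 in mut-14 smut-1 animals, against 114, 114 and 108 in wild type (log2 change -0.64 ± 0.20, adjusted p = 0.00954), and at generation 50 287, 380.3 and 173 in mut-14 smut-1 animals, against 257, 197 and 208 in wild type, which overlapped. In all 3 genes the mutant libraries at generation 1 lay below wild type, and the call of Y17D7C.3 was lost without mut-14 smut-1 replicate 1. The mRNA of Y71A12B.2, which with Y71A12B.3 had the largest small RNA fall at generation 1, had 16.9, 20.7 and 13.1 in mut-14 smut-1 animals, against 37.8, 34 and 39.9 in wild type at generation 1 (log2 change -1.11 ± 0.26, adjusted p = 0.00104). The genes mdt-4, mix-1 and cgh-1, whose small RNA counts rose, had lower mRNA at generation 1 (-0.59, -0.49 and -0.60). The falls at generation 50 of dig-1, an extracellular matrix protein (-1.11), F54C8.6 (-1.39) and gfrl-1 (-0.93) and the rise of T08B6.2 (2.48) were lost when single libraries were left out.

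**Figure D4:**
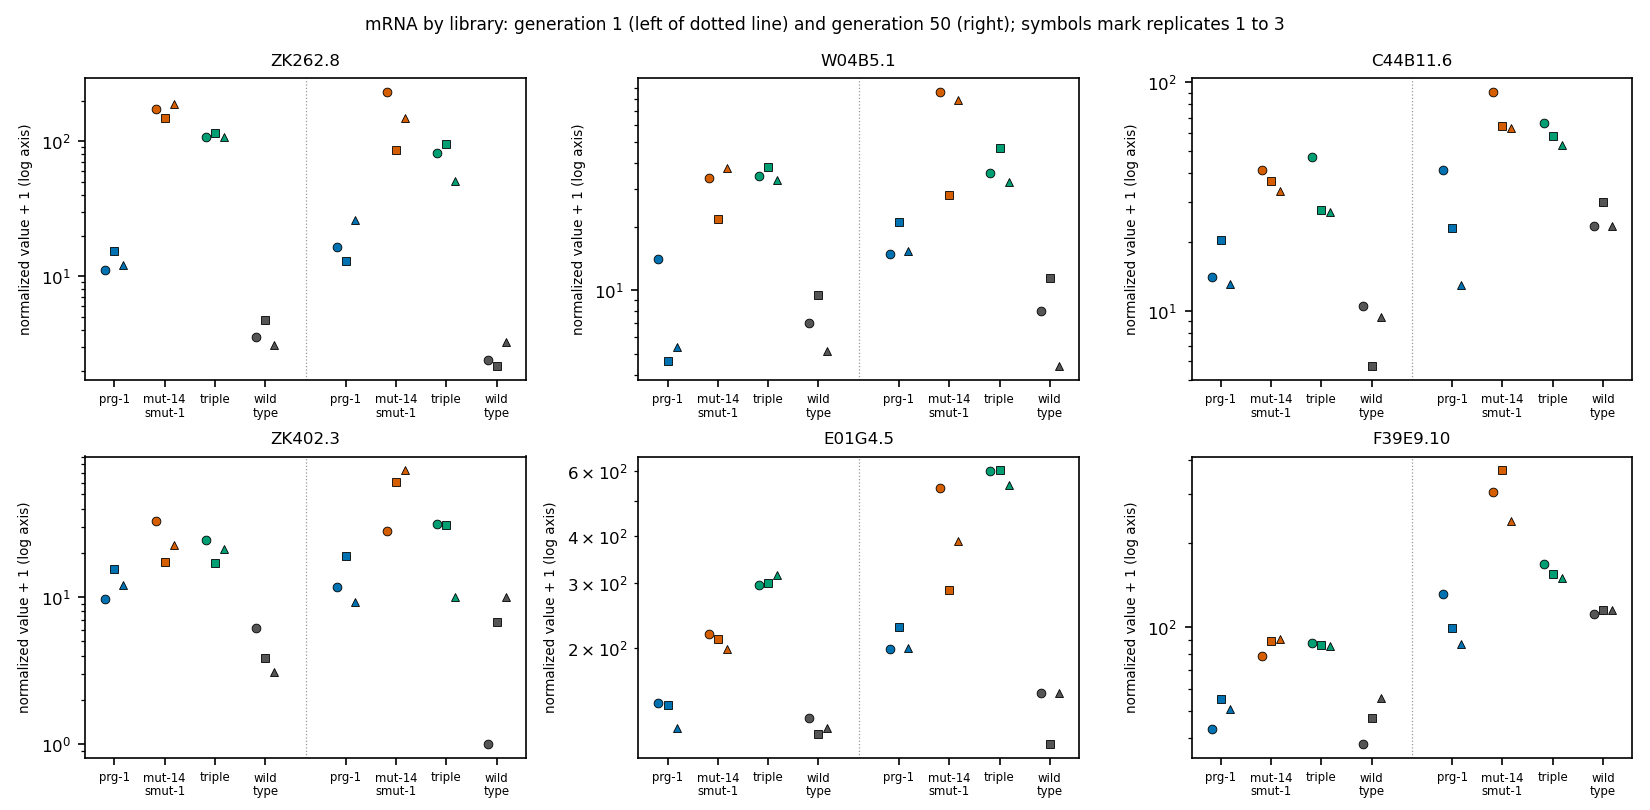
mRNA of 6 members by library, as normalized reads plus 1 on log10 axes, at generation 1 (left of the dotted line) and generation 50 (right); symbols are replicates or lines. Mut-14 smut-1 and triple mutant libraries lie above wild type for ZK262.8, W04B5.1, C44B11.6 and E01G4.5 at both generations, and ZK262.8 is the gene with the widest gap (log2 change 5.49 at generation 1).

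In prg-1 animals the members' mRNA also moved both ways. At generation 1, 16 rose and 24 fell, where 25.6% of all genes rose and 32% fell, and with library totals 21 rose and 17 fell. At generation 50, 3 rose and 3 fell, where 7.41% of all genes rose and 3.8% fell, and of these only ZK262.8 kept its call when any single library was left out; with library totals 2 rose and 1 fell. ZK262.8 had 10.1, 14.5 and 11 in prg-1 animals, against 2.58, 3.77 and 2.1 in wild type at generation 1 (log2 change 1.77 ± 0.22, adjusted p = 6.77e-06) and 15.4, 12 and 25 in prg-1 animals, against 1.4, 1.16 and 2.26 in wild type at generation 50 (log2 change 2.79 ± 0.45, adjusted p = 0.00477). Y57G11C.5 had 55.1, 50.7 and 52.2 in prg-1 animals, against 19.1, 9.42 and 19 in wild type at generation 1 (log2 change 1.73 ± 0.22, adjusted p = 9.5e-06). The gene dhc-4, a dynein heavy chain, had 21.7, 24.2 and 22.1 in prg-1 animals, against 5.15, 9.44 and 4.2 in wild type (log2 change 1.77 ± 0.39, adjusted p = 0.00122). None of these prg-1 values overlapped wild type. Among the genes that fell, T02G6.10 had 1.45, 3.62 and 6.62 in prg-1 animals, against 11.2, 15.1 and 16.8 in wild type (log2 change -1.78 ± 0.41, adjusted p = 0.00149). Y55F3BR.2 had 114, 96.6 and 66.2 in prg-1 animals, against 238, 212 and 166 in wild type (log2 change -1.16 ± 0.18, adjusted p = 5.8e-05). F52D2.6 had 343, 348 and 341 in prg-1 animals, against 720.4, 696 and 719 in wild type (log2 change -1.05 ± 0.069, adjusted p = 3.93e-09). In these 3 genes the prg-1 libraries lay below wild type. ZK402.5 was listed at 0 in all 3 prg-1 libraries of generation 1, against 6.01, 11.3 and 4.2 in wild type, and had 92.5, 30.1 and 29.8 in prg-1 lines at generation 50. For cpz-1, which gained small RNA reads, the mRNA was not lower: it had 6215, 6298 and 6596 in prg-1 animals, against 5084, 5219.8 and 5347 in wild type (log2 change 0.29 ± 0.046, adjusted p = 8.21e-05). The mRNA of rps-13 had 13426, 12732 and 14691 in prg-1 animals, against 17390, 15625 and 16332 in wild type (log2 change -0.27 ± 0.059, adjusted p = 0.000916).

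Few members differed in mRNA between triple mutants and mut-14 smut-1 animals. In triple mutants against mut-14 smut-1, 5 rose and 2 fell at generation 1, where 6.01% of all genes rose and 5.51% fell, and 4 were called without triple mutant replicate 1. With library totals 4 rose and 5 fell. At generation 50 none was called, where 1.41% of all genes rose and 0.545% fell. At an unadjusted p under 0.05, 9 members were higher and 12 lower there, and without mut-14 smut-1 line 3 5 rose and 5 fell after adjustment. The rises of eri-6 (log2 change 0.47 ± 0.088, adjusted p = 0.00218) and E01G4.5 (log2 change 0.53 ± 0.091, adjusted p = 0.000908) were among those at generation 1. Against prg-1, 38 rose and 15 fell at generation 1, where 25.7% of all genes rose and 28.2% fell, and 3 rose and none fell at generation 50, where 0.416% of all genes rose and 0.294% fell. ZK262.8 had 107, 113.2 and 107 in triple mutants, against 10.1, 14.5 and 11 in prg-1 animals at generation 1 (log2 change 3.11 ± 0.22, adjusted p = 1.52e-08). W04B5.1 had 33.7, 37 and 32.2 in triple mutants, against 13, 3.62 and 4.41 in prg-1 animals (log2 change 2.32 ± 0.39, adjusted p = 0.000125). The groups did not overlap. The 3 calls of generation 50, F55C9.3, fbxc-37 and E01G4.5, were each lost when single libraries were left out, and at an unadjusted p under 0.05 21 members were higher and 2 lower. The prg-1 effect differed between backgrounds in 29 members at generation 1, 18 higher and 11 lower in the mut-14 smut-1 background, where 19.9% and 17.2% of all genes did so. With library totals these were 12 and 13. At generation 50, 1 was higher and 2 were lower, where 1.73% and 2.86% of all genes did so, and the counts were 8 higher and 4 lower without mut-14 smut-1 line 3 and 1 in all without wild-type line 2. With library totals none was higher and 2 were lower.

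Changes in small RNA and in mRNA were set side by side for the members tested in both. In mut-14 smut-1 at generation 1, 57 members were tested in both readouts. Of the 43 whose small RNA fell, 18 had higher mRNA, 10 had lower mRNA and 15 were not called, where 38.1% of all genes rose and 39.9% fell. At generation 50, of the 61 members whose second count fell, 15 had higher mRNA, 1 had lower mRNA and 45 were not called. Over all genes there, 16.5% rose and 11.3% fell. Of the 36 members whose class count fell and whose mRNA was tested, 10 had higher and none lower mRNA. In prg-1 at generation 1, of 33 members whose small RNA rose, 12 had lower mRNA, 5 had higher mRNA and 16 were not called. Over all genes in that comparison, 32% fell and 25.6% rose. At generation 1 the members with opposite changes were thus near the shares over all genes. The Spearman correlations of the log2 changes over members were 0.02 for mut-14 smut-1 and 0.15 for prg-1 at generation 1, and -0.04 and 0.22 at generation 50 with the second count. With the class count at generation 50 they were 0.26 and -0.01 over 41 members. All are descriptions. At generation 1 the members called in opposite directions with the widest difference in mut-14 smut-1 were ZK262.8, ttn-1, gfrl-1, E01G4.5, Y17D7B.4 and C44B11.6. For Y17D7B.4 the small RNA count was 103 and 90.7 in mut-14 smut-1 animals, against 896, 867 and 884 in wild type (log2 change -3.18 ± 0.10, adjusted p = 1.03e-08), and the mRNA was 222, 193 and 192 in mut-14 smut-1 animals, against 97.9, 115 and 109 in wild type (log2 change 0.91 ± 0.11, adjusted p = 1.45e-06).

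**Figure D5:**
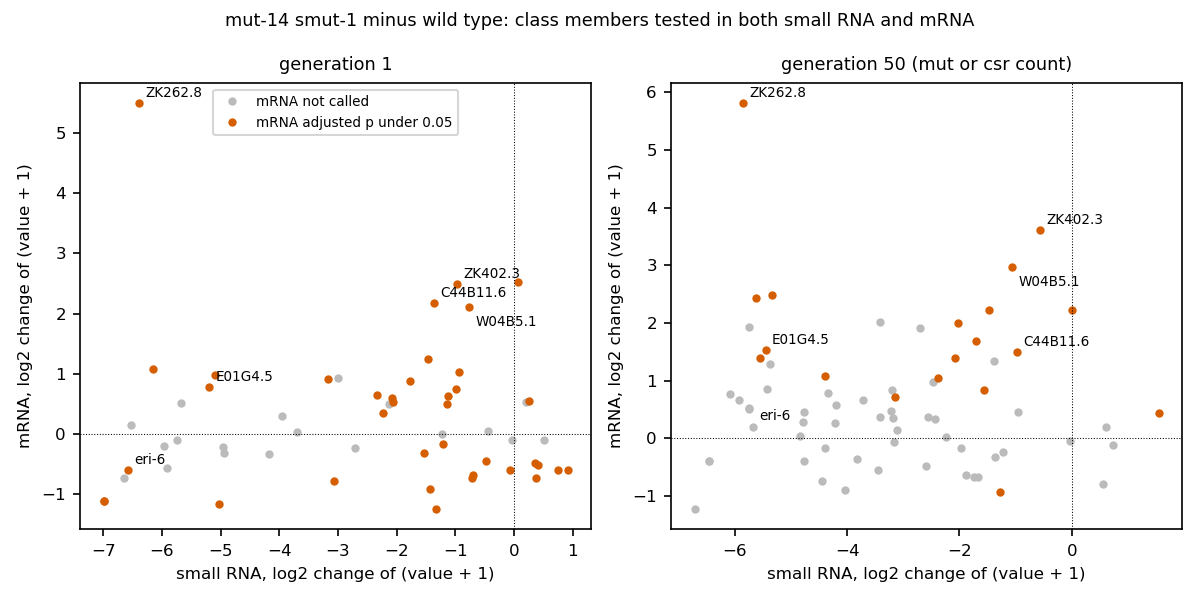
Log2 change of small RNA (horizontal) and of mRNA (vertical), each of normalized value + 1, mut-14 smut-1 minus wild type, for members tested in both at generation 1 and generation 50; points are members, orange where the mRNA was called. Most members lie left of 0 and are spread above and below 0 in mRNA, and ZK262.8 lies highest, at 5.49 and 5.81.

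Markers of other tissues and cell types moved in the same mRNA libraries. At generation 1 all 26 sperm genes of a marker list rose in prg-1 animals and likewise in mut-14 smut-1 animals, and their summed level was 5832 to 6318 normalized reads in prg-1 animals, 13312 to 15589 in mut-14 smut-1 animals and 19565 to 24024 in triple mutants, against 1438 to 2053 in wild type. Of 15 oocyte and eggshell genes, 13 fell in prg-1 animals and 15 in mut-14 smut-1 animals, with sums of 194799 to 219260 in mut-14 smut-1, against 313032 to 338507 in wild type. Of 13 germline genes, 9 fell in prg-1 animals and 12 in mut-14 smut-1 animals, of 6 vitellogenin genes none and 6 fell, and all 7 body wall muscle genes rose in both mutants. Of 12 early embryonic genes tested, 1 fell in prg-1, and 7 fell and 1 rose in mut-14 smut-1. Over all genes at generation 1, 25.6% rose and 32% fell in prg-1, and 38.1% rose and 39.9% fell in mut-14 smut-1. At generation 50 the sperm sum ran from 7119 to 16848 in prg-1 lines, 5652 to 14081 in mut-14 smut-1 lines and 8484 to 17464 in triple mutants, against 140 to 6411 in wild type, so wild-type lines differed widely among themselves. There 17 of the 26 sperm genes rose in prg-1 lines and 18 in mut-14 smut-1 lines. Of the 15 oocyte and eggshell genes at generation 50, 10 fell in mut-14 smut-1 lines (median -0.55), none was called in prg-1 lines, and 6 were higher in triple mutants than in mut-14 smut-1 lines. Their sum was 255138 to 354261 in prg-1 lines, 201415 to 250816 in mut-14 smut-1 lines and 302837 to 343253 in triple mutants, against 283458 to 336490 in wild type. Of the germline genes 4 fell and 1 rose in mut-14 smut-1 lines. The early embryonic sum was 714 to 866 in prg-1 lines and 690 to 886 in mut-14 smut-1 lines. Triple mutants had 854 to 962, against 1006 to 1259 in wild type, so every mutant line lay below wild type. Of the 12 early embryonic genes tested, 1 fell in prg-1 lines and 2 in mut-14 smut-1 lines, and none rose. Over all genes at generation 50, 7.41% rose and 3.8% fell in prg-1 lines, and 16.5% rose and 11.3% fell in mut-14 smut-1 lines. In triple mutants against mut-14 smut-1, 1.41% of all genes rose. No gene of these lists was at 0 in every library. Since ERGO-1 small RNAs are made in oocytes and embryos, these sums stand beside the results above; their part in them was not tested.

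The mRNA of the pathway that makes ERGO-1 small RNAs was lower in mut-14 smut-1 at generation 1, as was that of the oocyte and germline lists. Of 13 listed genes of the 26G-RNA pathway, 13 fell in mut-14 smut-1 and 11 fell in prg-1, and none rose, where 39.9% and 32% of all genes fell. The median change in mut-14 smut-1 was -0.54 for the pathway, -0.66 for the oocyte and eggshell list and -0.53 for the germline list. The ergo-1 mRNA itself averaged 3985 ± 214 normalized reads in mut-14 smut-1 and 5056 ± 265 in prg-1, against 5951 ± 324 in wild type (SD, n = 3 each; log2 changes -0.58 and -0.23). The mRNA of rrf-3, its RNA-dependent RNA polymerase partner, averaged 2737 ± 46.0 in mut-14 smut-1, against 3992 ± 115 in wild type (log2 change -0.54). The largest change in the pathway was that of eri-7, which is joined with eri-6 by trans-splicing into 1 message for the ERI-6/7 helicase. It averaged 281 ± 27.9 in mut-14 smut-1 and 317 ± 20.2 in triple mutants, against 1318 ± 52.6 in wild type (log2 change -2.23 in mut-14 smut-1, adjusted p = 2.03e-13). At generation 50 it averaged 1172 ± 265 in mut-14 smut-1, against 1777 ± 77 in wild type (log2 change -0.62, adjusted p = 0.0226). The eri-6 part had 242, 198 and 230 in mut-14 smut-1 animals, against 340, 362 and 317 in wild type (log2 change -0.61 ± 0.088, adjusted p = 1.01e-05), and at generation 50 614, 894 and 635 in mut-14 smut-1 animals, against 549, 737 and 566 in wild type, with overlap. The gene eri-6 is itself a member of the class, and its small RNA falls are given above.

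Other lists of small RNA factors moved in the same libraries. Of 15 mutator and amplification genes, which include mut-14 and smut-1, 14 fell and 1 rose at generation 1 in both mutants, where 32% of all genes fell in prg-1 and 39.9% in mut-14 smut-1 and the oocyte and germline lists fell as given above. Of 11 secondary Argonautes tested, 2 rose and 2 fell in prg-1, and 2 rose and 6 fell in mut-14 smut-1. Over all genes, 25.6% rose in prg-1 and 38.1% in mut-14 smut-1. Of 8 nuclear RNAi genes, 5 fell in prg-1 animals and 8 in mut-14 smut-1 animals, and of 9 other primary Argonautes, 3 rose and 6 fell in prg-1 animals, while 2 rose and 6 fell in mut-14 smut-1 animals. The gene nrde-3, for the nuclear Argonaute that binds the 22G-RNAs of ERGO-1 targets, averaged 728 ± 44 in prg-1 animals, 828 ± 62.4 in mut-14 smut-1 animals and 713 ± 38.5 in triple mutants, against 1459 ± 34.5 in wild type at generation 1 (log2 change -1.0 in prg-1, adjusted p = 2.98e-09, and -0.82 in mut-14 smut-1, adjusted p = 1.08e-08). All mutant libraries lay below wild type. At generation 50 its changes were -0.75 in prg-1 lines and -0.73 in mut-14 smut-1 lines. By then 2 of the 13 pathway genes, of which eri-7 and ergo-1 are those named here, were lower in mut-14 smut-1 and none in prg-1. Over all genes, 11.3% and 3.8% were lower there.

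Many members lie next to each other in the genome. Of 115 members placed by RefSeq, 25 had another member as a direct neighbour, in 15 adjacent pairs that formed 10 groups. The groups of 3 or more were C01A2.1 with W05H12.4 and W05H12.2, the 4 genes Y43F8B.9, Y43F8B.22, Y43F8B.8 and Y43F8B.17, and the 4 genes ZK402.5, ZK402.3, ZK402.2 and ZK402.1. In the ZK402 group ZK402.5 and ZK402.3 rose together in small RNA of prg-1 at generation 1 (1.45 and 1.61), while their mRNA differed: ZK402.3 had 8.69, 14.5 and 11 in prg-1 animals, against 5.15, 2.83 and 2.1 in wild type, and ZK402.5 was listed at 0 in prg-1 animals. Some members had nearly the same counts in every library, such as Y71A12B.2 and Y71A12B.3, which were identical, F29G9.1 and F46C3.7, which differed by 2.52% on average, and C44B11.6 and K02E2.6, which differed by 5.85%, in generation 1 small RNA. How the authors counted reads that match more than 1 gene is not given in the sources used here, so the values of such pairs may rest on shared reads and are uncertain as values of single genes.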

How the data were processed

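Small RNA and mRNA tables of 53 libraries, out of 59 in the series, were used. Per the labels' protocols, small RNA was treated with a polyphosphatase and mRNA libraries were made after rRNA depletion. Aligner, counter and genome build were not given in the sources used here. Signal values deposited by the authors are read counts divided by a normalization factor per library. Whole reads were recovered from 100% of the small RNA values (within 0.01) and not from the mRNA values.

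Values were tested as log2(value + 1) with limma 3.58.1 in R 4.3.3, with 1 mean per genotype, all genotypes of a table in a fit, a trended prior and Benjamini-Hochberg adjustment over all features. Features needed 10 or more in as many libraries as the smallest group had, and 158 repeated mRNA entries were dropped. On simulated data the fit recovered 199 or 200 of 200 changed genes per table. The size of change and the spread used in that simulation are not given here. This recovery therefore checks that the fit runs correctly and does not measure power for the changes reported above. edgeR 4.0.16 and DESeq2 1.42.0 were run on recovered small RNA reads as alternatives. Depth limits precision most in generation 1 small RNA, with 224056 counted reads in its smallest library.

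Named genes were a selection from the 10 most abundant members, the 4 largest called changes each way per comparison without overlap, and the 6 widest opposite small RNA and mRNA calls. MTCE.31, MTCE.12, F42C5.9 and other genes outside these were chosen after their values were seen. The members and gene lists were chosen with earlier results of these data known. No sequence is printed.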

Additional observations from a re-analysis of the deposited data

Results flagged for a closer look

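The members below are those called in the interaction term of limma (triple mutant minus mut-14 smut-1, minus prg-1 over wild type, on the log2 scale, adjusted over all features). The term compares strains with and without prg-1(n4357) in the mut-14 smut-1 background and in wild type. Since unc-119(ed3) was only in the mut-14 smut-1 strain, its part cannot be told apart from that of the prg-1 allele. At generation 50, 4 class counts were higher in this term: T08B6.2 by 2.92, Y116A8B.1 by 2.00, Y43F8B.9 by 1.85 and Y17D7C.6 by 1.23. Of the second counts, 5 were higher, among them Y71A12B.2 and Y71A12B.3 by 3.26 each, asc-1 by 1.10 and Y43F8B.8 by 1.07. There 16 were lower, with Y55F3BR.2 at -4.87, ttn-1 at -3.77, gfrl-1 at -3.35 and ZK262.8 at -2.73 as the largest. These values share the mut-14 smut-1 lines of generation 50, of which line 3 stood apart.

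In generation 1 small RNA 3 members were higher in the same term, namely Y71A12B.2 and Y71A12B.3 with 4.42 each and C01A2.1 with 0.52, whose call was lost when single libraries were left out. A further 39 were lower, the largest being cpz-1 at -9.12, rps-13 at -5.88, Y55F3BR.2 at -5.59 and gfrl-1 at -3.99. For these 4 genes the libraries of triple mutants were far below those of prg-1 animals.

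In generation 1 mRNA 18 members were higher, with ZK402.5 at 3.08 (prg-1 libraries listed at 0, so that the size depends on the value added before taking logs), T02G6.10 at 2.18, Y17D7C.3 at 1.49 and F52D2.6 at 1.14. Another 11 were lower, with ZK262.8 at -2.39, ZK402.3 at -1.73, dhc-4 at -1.48 and Y57G11C.5 at -1.41. At generation 50 there was 1 higher, F52D2.6 at 0.95, and 2 were lower, ZK262.8 at -3.75 and Y105C5A.25 at -1.86. ZK262.8 was thus lower in this term in mRNA at both generations, and its generation 50 call was kept when any single library was left out. No member in this comparison had a group of 4 or more libraries, so none was tested for a single library far from the others.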

How the results depend on the processing

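Median-ratio scaling gave the same counts of called members as the deposited scaling. Numbers below are members called in both directions, and the cause of each change was not tested. For the class count at generation 50, prg-1 against wild type (12) gave 30 with library totals, 25 with log2(value + 10), 22 without a filter, 6 with a filter of 10 CPM, 35 with only these 2 groups, 45 scaled to summed miRNA, 36 with edgeR and 22 with DESeq2. Mut-14 smut-1 against wild type (51) gave 25 at 10 CPM, where fewer members were tested. Triple mutants against mut-14 smut-1 (0) gave 2 with library totals, 1 without a filter, 2 scaled to miRNA and 1 with DESeq2. Triple mutants against prg-1 (21) gave 9 at 10 CPM and 52 scaled to miRNA. The interaction (4) gave 16 with library totals, 11 with log2(value + 10), 11 without a filter, 1 at 10 CPM, 22 scaled to miRNA and 1 with DESeq2. The second counts in triple mutants against mut-14 smut-1 (8) gave 4 at 10 CPM, 5 with edgeR and 4 in a fit without piRNAs and miRNAs, which was chosen after seeing the data.

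At generation 1, small RNA of prg-1 (55) gave 36 with library totals, and triple mutants against mut-14 smut-1 (6) gave 0 with edgeR and 3 with DESeq2. With 10 CPM, generation 1 mRNA gave 21 for prg-1 (40), 30 for mut-14 smut-1 (51), 30 in triple mutants against prg-1 (53) and 18 in the interaction (29). Generation 50 mRNA of prg-1 (6) gave 3 with library totals and 0 at 10 CPM. That of mut-14 smut-1 (27) gave 11 at 10 CPM and 16 with only these 2 groups. Triple mutants against prg-1 (3) gave 1 with library totals, 1 without a filter and 1 at 10 CPM, and the interaction (3) gave 1 at 10 CPM. The class share of wild type was 0.669 in mut-14 smut-1 (0.252 without line 3, a value added after seeing the data) and 0.465 in triple mutants against a total without piRNAs and miRNAs, and 0.0639 in triple mutants per summed miRNA. Second counts changed sign for mdt-4 (-0.628 in mut-14 smut-1 and -0.231 in triple mutants against prg-1, scaled to miRNA), mix-1 (-0.757 scaled to miRNA, -0.042 with edgeR) and cgh-1 (-0.805 scaled to miRNA, -0.093 with edgeR).

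The replicate and line numbers did not pair the libraries, since same-number correlations of deviations were not all above 0.1. With a replicate block, the class count gave 1 call in triple mutants against mut-14 smut-1 and 2 in the interaction, the second count 4 in triple mutants against mut-14 smut-1, and generation 50 mRNA 2 in prg-1, 1 in triple mutants against prg-1 and 1 in the interaction. The other counts with that block were within 1.5 times of those reported.

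Leaving out 1 library at a time gave these ranges of calls. For class counts they were 8 to 14 (prg-1), 45 to 55 (mut-14 smut-1), 0 to 19 (triple against mut-14 smut-1), 8 to 20 (triple against prg-1) and 2 to 30 (interaction). For second counts they were 26 to 36, 76 to 83, 4 to 28, 69 to 75 and 18 to 45 in the same order. For generation 1 small RNA they were 49 to 54, 57 to 60, 1 to 15, 63 to 66 and 39 to 48, and for prg-1(tm872) 49 to 64. For generation 1 mRNA they were 31 to 42, 44 to 50, 4 to 10, 36 to 52 and 22 to 31, and for generation 50 mRNA 1 to 4, 17 to 43, 0 to 10, 0 to 2 and 1 to 12. The class share ranged from 0.296 to 0.415 in prg-1 lines, 0.0736 to 0.192 in mut-14 smut-1 lines and 0.112 to 0.150 in triple mutants. Of the values of named genes, 2113 kept direction and side of the threshold, 273 kept direction only and 6 changed sign. edgeR and DESeq2 were not run on mRNA, whose whole reads could not be recovered. Where a group was left with 1 library, it was assumed to vary like the other groups.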
